A study of Mus musculus with 4 samples.

Results

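The genes described here code for 10 co-signalling receptors of T cells, the CD28 family and a set of receptors that mostly restrain activation: Cd28, Ctla4, Icos, Pdcd1, Btla, Tigit, Lag3, Havcr2, Cd96 and Cd226. They were chosen by name as a receptor family, with earlier results of these data known, and all 10 were found among the 50600 genes of the deposited tables, of which 21764 are protein-coding. RNA-seq counts came from 4 libraries of T helper 17 (Th17) primary cells of C57BL/6NJ mice, differentiated from CD4 T cells per the labels and numbered as biological replicates 1 to 4. Th17 cells are a helper lineage named for its cytokine IL-17. The labels give 1 donor entry for all 4 libraries, do not give age or sex, and name no treatment, while the table headers name a time of 24 hours. Each value describes this 1 group, and where p-values are given they measure only the spread between these samples.

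T cell activation needs a signal from the antigen receptor and a second, co-stimulatory signal. CD28 gives that second signal when it binds CD80 or CD86 on an antigen-presenting cell, and CTLA-4 competes with it for the same ligands. PD-1, BTLA, TIGIT, LAG-3 and TIM-3 dampen signalling through other ligands and are induced or maintained on activated T cells.

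Total counts ran from 19332509 to 48558772 per library, so that 3 counts over 1 kb of exon equal 0.206 to 0.518 TPM (a level scaled by exon length and library total, summing to the same total in each library). Of 7 T cell markers, 6 were above 1 TPM (edgeR, quasi-likelihood test against that level) and the seventh, Trac, was not tested because it is not annotated as protein-coding. All 6 Th17 markers lay above it, among them Il17f and Il17a at 492 ± 71.4 TPM and 46.0 ± 6.13 TPM (SD, n = 4). The share above it over all protein-coding genes was 45.9%. Il17f varied between libraries, at 557, 391, 501 and 521 TPM in replicates 1 to 4 (edgeR dispersion trend, adjusted p = 0.0470). This call was lost without replicate 2 (edgeR trend, adjusted p = 0.99992), 3 (0.150) or 4 (0.249), and with a common dispersion (0.0809). The replicates differed in genes of the sex chromosomes, a difference that the labels do not give. Ddx3y was at 77.8 and 58.9 TPM in replicates 1 and 2 and at 0.240 and 0.0925 TPM in replicates 3 and 4, and Xist at 0.916, 1.01, 154 and 152 TPM. The Y-linked genes Eif2s3y, Kdm5d and Uty split the replicates in the same way as Ddx3y. The 1 donor entry of the labels is therefore not read here as 1 animal. The receptor values are therefore given for each replicate, and the part this difference has in them was not tested.

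Of the 10 receptor genes, 9 had a mean of at least 31.6 TPM each, and 1, Havcr2, had 8 counts in all. By edgeR's test 9 of 10 lay above 1 TPM and 1 below, beside 45.9% of all protein-coding genes above and 51.5% below. DESeq2's Wald test gave the same 9 and 1, beside 70.8% above and 23.9% below of the 14060 genes with a count. Their median was 151 TPM, beside 0.411 TPM over all protein-coding genes. Together they summed to 2379, 2329, 2411 and 2336 TPM in replicates 1 to 4, with a mean of 2364 ± 38.1 TPM (SD, n = 4). Btla and Ctla4 made up 53.3% ± 1.43 of that sum. The genes of the activating receptors Cd28, Icos and Cd226 made up 19.7% ± 0.120, between 19.5% and 19.8% in each library. The other 7 of the 10 genes, counted here as inhibitory, made up 80.3% ± 0.120. Such shares depend on how many genes were listed as inhibitory or activating. Counting Cd96, whose role is described both ways, with the activating genes gave 21.02% ± 0.0855. In a bulk sample fewer cells of a type and less RNA per cell cannot be told apart, so these are levels of the whole culture.

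**Figure D1:**
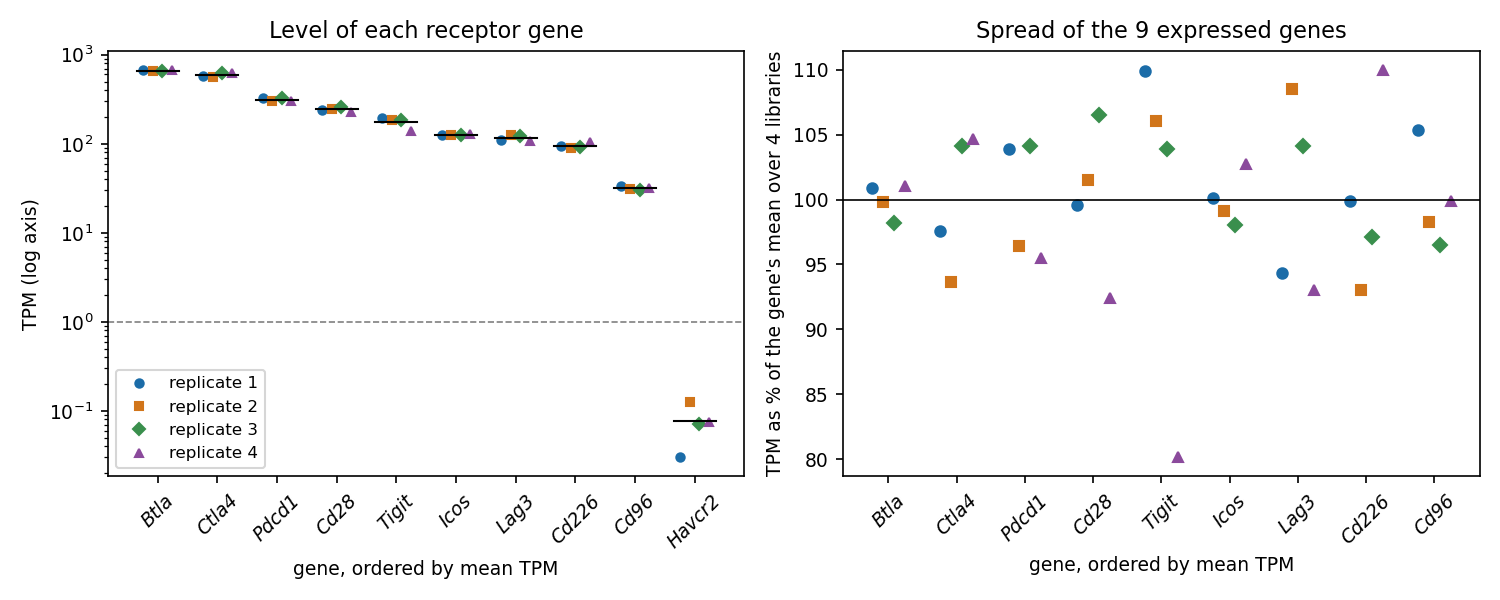
The left panel plots the TPM of each receptor gene (log axis) in replicates 1 to 4, with the mean as a line and 1 TPM as a dashed line, and the right panel each library's TPM as a percentage of the gene's own mean for the 9 genes other than Havcr2. Havcr2 alone lies under the dashed line, Btla points sit within 653 to 672 TPM, and the replicate 4 point of Tigit, at 141 TPM, is below the other 3.

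Among the CD28 family, Ctla4, the gene of the inhibitory receptor that competes with CD28, was among the highest. Ctla4 (ENSMUSG00000026011, mm10 chromosome 1, 60887000 to 60915832) gave 581, 558, 620 and 624 TPM in replicates 1 to 4, a mean of 596 ± 31.8 TPM (SD, n = 4). Replicates 3 and 4 were the higher ones and the gene ranked 233 among protein-coding genes. A processed pseudogene, Rpl18-ps1, lies within its span on the same strand with 98 counts over the 4 libraries, against 60229 for Ctla4.

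Cd28 itself (ENSMUSG00000026012, mm10 chromosome 1, 60716800 to 60773359), the main co-stimulatory receptor of naive T cells, gave 242, 247, 259 and 225 TPM, a mean of 243 ± 14.2 TPM. It drew more counts than Ctla4, 63373 against 60229, over a longer merged exon length of 6122 bases against 2330, so the order of the genes rests on the scaling by length. Icos (ENSMUSG00000026009, mm10 chromosome 1, 60977927 to 61000320), a co-stimulatory receptor induced on activation that supports helper cytokine production, gave 127, 125, 124 and 130.1 TPM, a mean of 127 ± 2.53 TPM. Its 4 libraries lay within 1.05-fold of each other.

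Pdcd1, the gene of PD-1 (ENSMUSG00000026285, mm10 chromosome 1, 94038305 to 94052553), gave 326, 303, 327 and 299.6 TPM, a mean of 314 ± 14.7 TPM (SD, n = 4). Btla (ENSMUSG00000052013, mm10 chromosome 16, 45224315 to 45252895), whose product binds the TNF receptor family member HVEM, was the highest of the 10 genes with the merged exon length. It gave 671, 664, 653 and 672 TPM, a mean of 665 ± 8.73 TPM, and ranked 197 among protein-coding genes. With the longest transcript as length its mean was 527 TPM, under the 568 TPM of Ctla4. The Btla and Pdcd1 ranges did not overlap.

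The next 3 receptors share the ligand CD155, the product of Pvr: CD226 activates, TIGIT inhibits, and CD96 binds the same ligand. Tigit (ENSMUSG00000071552, mm10 chromosome 16, 43648861 to 43664184) gave 193, 186, 183 and 141 TPM, a mean of 176 ± 23.7 TPM (SD, n = 4), with replicate 4 lowest. Cd226 (ENSMUSG00000034028, mm10 chromosome 18, 89197431 to 89270201) gave 95.1, 88.6, 92.4 and 105 TPM, a mean of 95.2 ± 6.87 TPM, with replicate 4 highest. With the longest transcript as length its mean was 39.5 ± 2.86 TPM. That transcript has 4494 bases, against 2357 bases of exons over which reads were counted. This lower value therefore spreads the counts over uncounted bases too. Cd96 (ENSMUSG00000022657, mm10 chromosome 16, 46035657 to 46120251) gave 33.3, 31.1, 30.5 and 31.6 TPM, a mean of 31.6 ± 1.21 TPM. The ranges of the 3 genes did not overlap.

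LAG-3, a receptor for MHC class II related to CD4, and TIM-3, the product of Havcr2 and a marker of differentiated Th1 and exhausted T cells, stood far apart. Lag3 (ENSMUSG00000030124, mm10 chromosome 6, 124904361 to 124911705) gave 110, 126, 121 and 108 TPM, a mean of 116 ± 8.74 TPM (SD, n = 4). Havcr2 (ENSMUSG00000020399, mm10 chromosome 11, 46454935 to 46481255) had 1, 2, 2 and 3 counts in replicates 1 to 4, or 0.0302, 0.127, 0.0706 and 0.0757 TPM. The pooled level of its 8 counts was 0.0685 TPM, with an exact Poisson 95% interval of 0.0296 to 0.135 TPM that covers counting error only. It lay below 1 TPM by edgeR's quasi-likelihood test (adjusted p = 1.34e-07).

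For 6 of the 10 genes (Ctla4, Pdcd1, Btla, Tigit, Havcr2 and Cd96) RefSeq lists a promoter on GRCm38.p6 in the table used, and the 250 bases before the start are shown for the 3 highest genes and for Havcr2, so that the genes at the ends of the range can be set side by side. They run 5′ to 3′ on the strand of the gene, with capitals for matches, on either strand, to 5 motifs: TGANTCA for AP-1, GGAAA for the core of NFAT sites, TATAAA for the basal promoter element, TGTGGT for RUNX factors and TTCNNNGAA for STAT factors. The positions are chr16:45224087-45224336 (+) for Btla, chr1:60908775-60909024 (+) for Ctla4, chr1:94052554-94052803 (-) for Pdcd1 and chr11:46454681-46454930 (+) for Havcr2.
Btla: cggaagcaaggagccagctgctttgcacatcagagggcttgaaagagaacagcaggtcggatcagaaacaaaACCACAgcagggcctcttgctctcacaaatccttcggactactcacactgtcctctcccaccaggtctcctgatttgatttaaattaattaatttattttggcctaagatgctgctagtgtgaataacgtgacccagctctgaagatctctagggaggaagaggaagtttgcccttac
Ctla4: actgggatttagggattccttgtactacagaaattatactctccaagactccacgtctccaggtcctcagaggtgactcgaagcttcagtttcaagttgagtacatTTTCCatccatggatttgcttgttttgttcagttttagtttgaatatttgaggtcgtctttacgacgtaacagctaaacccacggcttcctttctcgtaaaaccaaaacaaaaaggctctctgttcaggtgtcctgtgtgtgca
Pdcd1: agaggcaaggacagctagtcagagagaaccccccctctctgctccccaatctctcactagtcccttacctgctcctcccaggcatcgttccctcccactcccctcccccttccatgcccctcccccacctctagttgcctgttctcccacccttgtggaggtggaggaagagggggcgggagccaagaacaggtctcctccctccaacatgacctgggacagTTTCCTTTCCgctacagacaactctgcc
Havcr2: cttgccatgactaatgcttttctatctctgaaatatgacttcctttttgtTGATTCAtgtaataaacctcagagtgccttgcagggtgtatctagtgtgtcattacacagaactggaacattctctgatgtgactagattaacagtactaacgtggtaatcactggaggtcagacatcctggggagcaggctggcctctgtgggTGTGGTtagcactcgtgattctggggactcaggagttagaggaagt
The RefSeq start of Ctla4 lies 22025 bases inside the gene as deposited, which begins further upstream, while those of the other 5 genes lie within 22 bases of the deposited start.

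In these windows Ctla4 held 1 match to GGAAA, Pdcd1 held 2 and Btla none, and Havcr2 held 1 match each to TGANTCA and TGTGGT. The share of 27025 RefSeq promoters with at least 1 match in the same 250 bases was 55.6% for GGAAA, 6.87% for TGANTCA, 12.97% for TATAAA, 14.2% for TGTGGT and 7.18% for TTCNNNGAA. TGTGGT matched once in Btla, Tigit, Havcr2 and Cd96. Cd96 held 4 matches to GGAAA and 1 each to TATAAA and TTCNNNGAA. A match describes letters only, not a bound site.

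Receptors were then compared within each library, as differences of log2(TPM + 1), over 8 pairs. The receptors of each pair share ligands or a family, except LAG-3 and TIM-3. CTLA-4 and CD28 compete for CD80 and CD86, and Ctla4 exceeded Cd28 by 1.29 ± 0.13 (SD, n = 4). The ratio of Ctla4 to Cd28 TPM was 2.40, 2.26, 2.39 and 2.77 in replicates 1 to 4, a mean of 2.46 ± 0.221. Icos was lower than Cd28, with a difference of -0.93 ± 0.11, and Ctla4 exceeded Icos by 2.22 ± 0.07. With the longest transcript as length, Ctla4 minus Cd28 was 1.07, Icos minus Cd28 -1.34 and Ctla4 minus Icos 2.41. Btla exceeded Pdcd1 by 1.08 ± 0.08, a TPM ratio of 2.12 ± 0.115.

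For the receptors of CD155, the gene of the inhibitory TIGIT exceeded that of the activating CD226 by 0.87 ± 0.30 (SD, n = 4). The ratio of Tigit to Cd226 TPM was 2.03, 2.11 and 1.98 in replicates 1 to 3 and 1.35 in replicate 4, where Tigit was lowest and Cd226 highest. Cd96 was lower than Cd226 by a difference of -1.56 ± 0.10, and Tigit exceeded Cd96 by 2.43 ± 0.20. These 2 comparisons with Cd226 rest on its deposited exon length of 2357 bases. With the longest GENCODE M21 transcript of each gene, 4494 bases for Cd226, they were 1.85 and -0.64. For Cd226 this length includes bases over which no reads were counted. Lag3 exceeded Havcr2 by 6.77 ± 0.08, which became 9.40 with a pseudocount of 0.1 in place of 1. Pooled over the libraries, the level of Lag3 was 1670-fold that of Havcr2, with a counting interval of 847 to 3867. All 8 differences kept 1 sign over 4 of 4 libraries. Flipping signs in every possible way (exact permutation, two-sided) gave p = 0.125 for each, also after adjustment over the 8, which is the lowest value possible with 4 libraries, so none can pass 0.05.

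**Figure D2:**
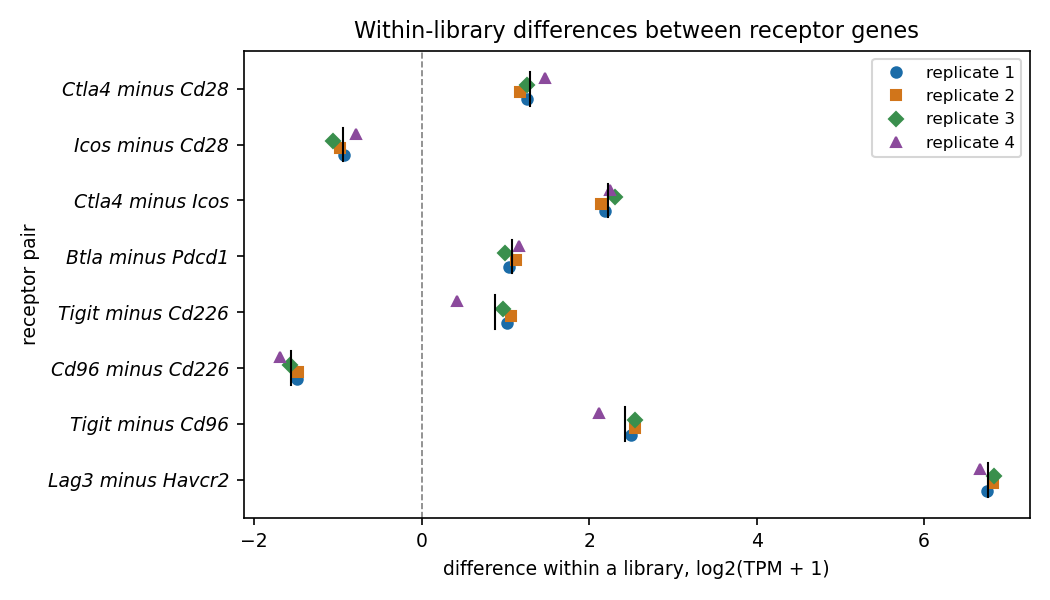
Each point is the difference in log2(TPM + 1) between 2 receptor genes within 1 library (replicates 1 to 4), with the mean as a line and 0 dashed. All 4 points of each pair lie on 1 side of 0, and replicate 4 lies apart, toward smaller differences, in both pairs that start with Tigit.

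In order of mean level the genes were Btla, Ctla4, Pdcd1, Cd28, Tigit, Icos, Lag3, Cd226, Cd96 and Havcr2. Among the 9 neighbouring pairs in this order, only Icos and Lag3 had overlapping ranges, with a difference of 0.12 ± 0.13 on the log2(TPM + 1) scale (SD, n = 4) and Icos higher in 3 of 4 libraries. Btla exceeded Ctla4 by 0.16 ± 0.08 in 4 of 4 libraries, and Pdcd1 exceeded Cd28 by 0.37 ± 0.06. With the longest transcript as length both of these orders turned, to -0.11 for Btla minus Ctla4 and -0.13 for Pdcd1 minus Cd28. The order within each of these pairs therefore depends on the length used.

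Variation between libraries was tested against the spread that edgeR's dispersion trend gives genes of like abundance. Of the 9 receptor genes with 10 or more counts on average, 0 varied beyond the trend at an adjusted p of 0.05, and 1, Tigit, had an unadjusted p under it, at 0.00609 (edgeR trend, adjusted p = 0.426). Without replicate 4 the unadjusted p of Tigit was 0.926 and the adjusted p 0.99997 (edgeR trend), so its spread rests on that library. Among all 12849 genes tested, 0.366% passed the adjusted threshold and 4.89% the unadjusted one. The coefficient of variation of Tigit was 13.5%, beside 2.48% from counting alone and a 90th percentile of 6.06% among protein-coding genes between 100 and 316 TPM. That of Btla was the lowest of the 9 at 1.31%, under the 10th percentile of 1.61% for genes between 316 and 1000 TPM. Lag3 at 7.51% lay above the 90th percentile of its level, and Icos at 2.00% between the 10th percentile of 1.73% and the median of 3.41%. The spread of Cd96, 3.84%, was as small as that of counting alone, 3.91%.

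**Figure D3:**
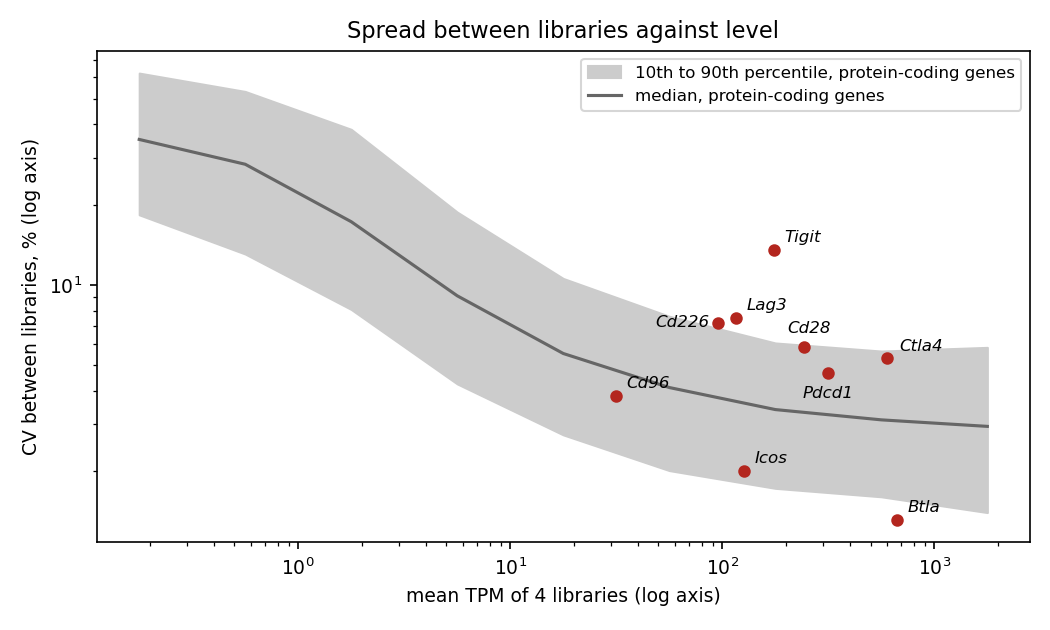
Each red point is 1 receptor gene, with its mean TPM on the x axis and its coefficient of variation between the 4 libraries on the y axis (both log axes), over the median (line) and the 10th to 90th percentile band of protein-coding genes in bins of level. Tigit at 13.5% lies above the band and Btla at 1.31% below it, and Havcr2 is left out because its mean is under 10 counts.

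Of 13 genes for ligands of the receptors, 7 lay above 1 TPM and 6 below by edgeR's test, shares near the 45.9% and 51.5% of all protein-coding genes. Both PD-1 ligand genes were among the 3 highest: Pdcd1lg2 (PD-L2) at 124 ± 9.05 TPM and Cd274 (PD-L1) at 107 ± 6.11 TPM (SD, n = 4), with Hmgb1, a chromatin protein that can also bind TIM-3, at 106 ± 6.10 TPM. Fgl1, a ligand of LAG-3, had no count in any library, and the limit set by 3 counts over the group is 0.0158 TPM. The other ligand genes are named after their values were seen. Lgals9, the gene of the TIM-3 ligand galectin-9, was at 89.7 ± 3.95 TPM, Tnfrsf14, the gene of HVEM, at 27.6 ± 3.86 TPM and Pvr at 21.4 ± 0.985 TPM. Of the ligands of CD28 and CTLA-4, Cd80 was at 15.1 ± 1.48 TPM and Cd86 at 0.151 ± 0.0815 TPM. Icosl, the gene of the ICOS ligand, was at 0.437 ± 0.113 TPM.

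The genes listed for the receptors' signalling were all above 1 TPM by edgeR's test, beside 45.9% of all protein-coding genes. In the CD28 and ICOS signalling list this held for 12 of 12, with Lck, the kinase that phosphorylates the CD28 tail, at 593 ± 15.7 TPM, Akt1 at 238 ± 9.67 TPM and the exchange factor gene Vav1 at 199 ± 7.25 TPM (SD, n = 4). Tec, a kinase gene, was lowest at 4.06 ± 0.687 TPM. In the inhibitory signalling list it held for 8 of 8, from Ptpn6, the gene of the phosphatase SHP-1, at 382 ± 11.9 TPM, Csk, a kinase that restrains Lck, at 307 ± 11.9 TPM and Bag6, whose product binds the TIM-3 tail, at 153 ± 3.44 TPM to Inpp5d, the gene of SHIP-1, at 28.2 ± 1.27 TPM. The medians of the 2 lists were 120 and 113 TPM.

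Genes of CTLA-4 traffic and of receptor shedding were above 1 TPM in 8 of 8, beside the same 45.9% of all protein-coding genes. Ap1m1 and Def6 were at 169 ± 5.05 TPM and 162 ± 7.0 TPM, Adam10, a protease that sheds LAG-3, at 104 ± 3.38 TPM, and Lrba, which protects CTLA-4 from lysosomal loss, was lowest at 34.0 ± 1.53 TPM (SD, n = 4). All 4 genes of the mRNA decay list, whose best known members degrade Icos transcripts, were above it too. Zc3h12d and Zc3h12a, the latter the gene of Regnase-1, stood at 222 ± 11.2 TPM and 134 ± 7.84 TPM, and the Roquin genes Rc3h1 and Rc3h2 at 46.5 ± 2.09 TPM and 11.9 ± 0.688 TPM.

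Transcription factors linked to inhibitory receptor genes were above 1 TPM in 14 of 16 and below in 2, Prdm1 and Eomes. The shares over all protein-coding genes were 45.9% above and 51.5% below. Batf and Irf4, which bind DNA together in activated T cells, led at 787 ± 33.4 TPM and 639 ± 34.2 TPM, followed by Tcf7, a factor of naive and stem-like T cells, at 435 ± 12.5 TPM (SD, n = 4). Eomes was lowest at 0.184 ± 0.152 TPM. Prdm1, the gene of Blimp-1, a regulator of effector differentiation, was at 0.781 ± 0.206 TPM, and its call (edgeR, adjusted p = 0.0364) was lost with DESeq2 (0.111), limma (0.102), TPM over protein-coding genes alone (0.0914), without replicate 3 (0.113) and without replicate 4 (0.267). Nr4a1, an orphan receptor gene induced by antigen receptor signals, was at 200.9, 222, 206 and 273 TPM in replicates 1 to 4. It alone of 15 tested factors varied between libraries (edgeR trend, adjusted p = 7.55e-05), beside 0.366% of all 12849 genes tested. This call was lost without replicate 3 (edgeR trend, adjusted p = 0.105), without replicate 4 (0.99997) and with a common dispersion (0.0852). It and Prdm1 are named after their values were seen. Replicate 4, highest for Nr4a1, was also the library with the lowest Tigit, and whether the one bears on the other was not tested.

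Of 16 other co-receptor genes, 8 lay above 1 TPM, 7 below and 1, Cd160, on neither side, again near the shares of all protein-coding genes (45.9% above and 51.5% below). With the longest transcript as length Cd160 was called below (edgeR quasi-likelihood test, adjusted p = 0.00522, against 0.0996 with the exon length). The TNF receptor family genes Tnfrsf4 (OX40) and Tnfrsf18 (GITR) were at 1182 ± 57.3 TPM and 178 ± 4.05 TPM and the adhesion receptor gene Cd2 at 173 ± 9.21 TPM (SD, n = 4). Of the 2 genes without a count, Timd4, of the TIM family that includes Havcr2, has a limit of 0.0322 TPM and Klrg1, an inhibitory lectin receptor gene named after its value was seen, one of 0.0494 TPM. Havcr1, also of the TIM family and named in the same way, was at 0.206 ± 0.103 TPM.

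**Figure D4:**
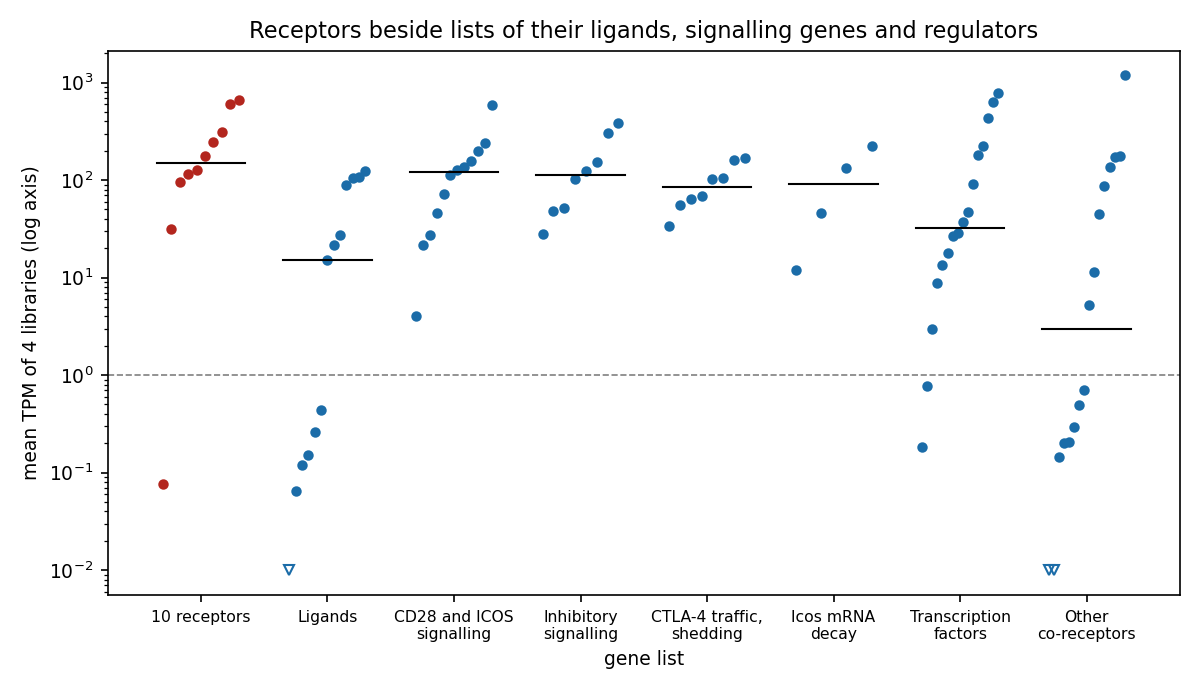
Each point is the mean TPM of 1 gene over 4 libraries (log axis), in columns for the 10 receptor genes (red) and 7 lists of related genes (blue), with the list median as a line, 1 TPM dashed and open triangles at the bottom for genes with no count. All points of the signalling, traffic and decay lists lie above the dashed line, while the ligand and co-receptor lists spread on both sides of it.

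Several receptor genes lie next to each other. Cd28, Ctla4 and Icos follow one another on chromosome 1 with no protein-coding gene between them, 114 kb and 62.1 kb apart, and all 3 were expressed, with the middle gene highest. The outer neighbours were lower: Raph1 before Cd28 was at 5.10 ± 0.239 TPM and Pard3b after Icos at 0.0329 ± 0.0171 TPM (SD, n = 4). Tigit, Btla and Cd96 are all on chromosome 16, but 1560 kb and 783 kb apart. Btla lies between Atg3, at 82.4 ± 3.44 TPM, and Cd200, the gene of another immune regulatory surface protein, at 709.5 ± 21.1 TPM.

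Lag3 lies 16.1 kb from Cd4, at 317 ± 8.53 TPM, and 1.98 kb from Ptms, at 44.1 ± 3.57 TPM. The nearest genes to Tigit were lowly expressed, Zbtb20 at 0.136 ± 0.0270 TPM and Drd3 with no count, as were those of Pdcd1 on one side, Neu4 with no count, and Cd226 on one side, Dok6 with 1 count. On their other sides Fam174a stood at 11.1 ± 1.73 TPM and Rttn at 21.8 ± 1.60 TPM. Cd96 lay between Plcxd2 at 23.2 ± 1.14 TPM and Gm4737 at 2.15 ± 0.615 TPM. Havcr2 lay 12.2 kb from the Mediator subunit gene Med7, at 35.4 ± 1.36 TPM, and on its other side Gm12169 had no count.

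**Figure D5:**
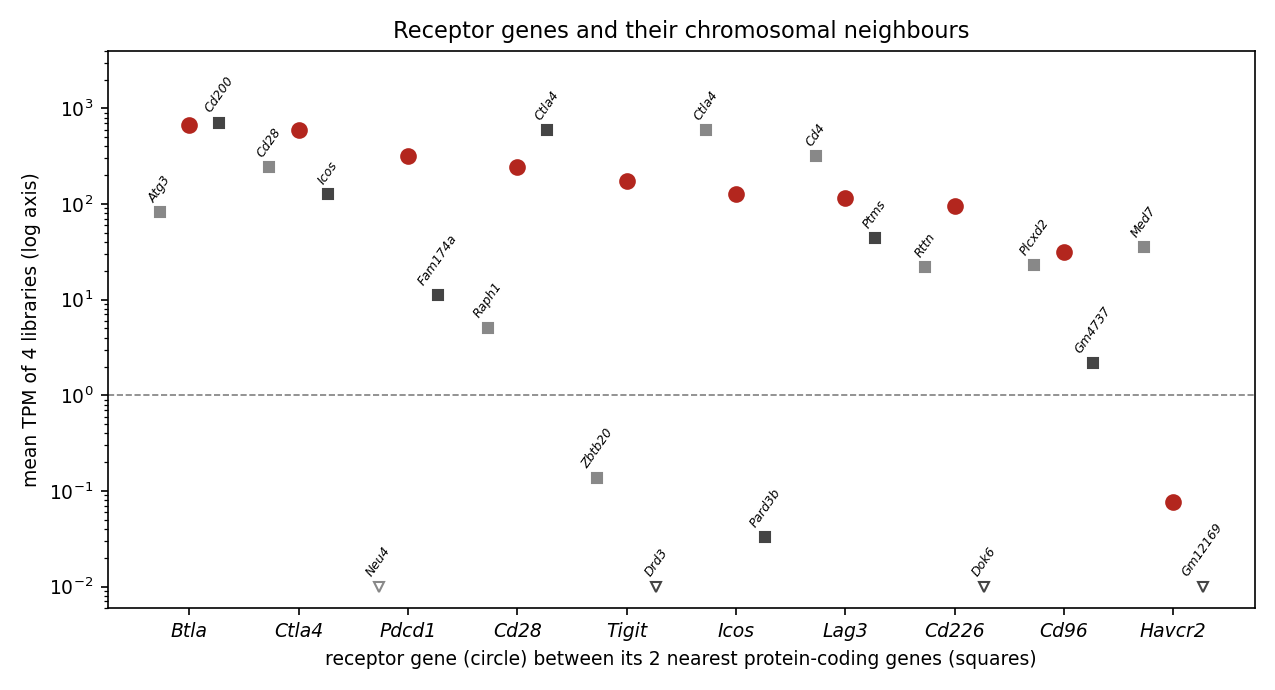
For each receptor gene (red circle) the plot gives mean TPM over 4 libraries (log axis) beside its nearest protein-coding gene at the lower coordinate (grey square, left) and at the higher coordinate (dark square, right), with triangles for genes under 0.01 TPM and 1 TPM dashed. Havcr2 alone sits under 1 TPM, while the neighbours range from no count to 709.5 TPM for Cd200.

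The protein-coding gene with the most similar values over the 4 libraries, by the mean absolute difference in log2(TPM + 1), was Cct4, a chaperonin subunit gene, for Btla (0.019), Snrpd1, a core splicing protein gene, for Ctla4 (0.027), Fam120a for Pdcd1 (0.025) and Utp3 for Cd28 (0.032). It was Rnaseh1 for Icos (0.017), Aatf for Lag3 (0.037), Vps16 for Cd226 (0.036) and Rhno1 for Cd96 (0.0094). For Tigit the nearest gene was Bach2, a repressor of effector genes, at 0.078, the largest of these distances. For Havcr2 it was Serinc4 at 0.0097, at levels that rest on a few counts each. These are likenesses of level in 1 cell type over 4 libraries.

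Markers of other cells that carry these receptors were counted in the same way, beside the 51.5% of all protein-coding genes below 1 TPM. What part such cells have in the receptor levels was not tested. All 4 regulatory T cell markers were below 1 TPM, with a summed level of 1.41 to 1.79 TPM and Foxp3 at 0.0877 ± 0.0730 TPM (SD, n = 4), where regulatory T cells are known for high Ctla4, Icos and Tigit. Of 8 CD8 T and NK cell markers, 6 were below, 1 neither and 1, Cd8b1, above at 14.4 ± 1.4 TPM. Their sum was 15.1 to 16.8 TPM, with no count of Klrb1c, Ncr1, Klrk1 or Gzma. Of 6 B cell markers the 5 tested were below, and the sum of 71.01 to 81.9 TPM was almost all Ighm at 74.1 ± 5.17 TPM, while Ms4a1 had 2 counts, where B cells are known for Btla. All 8 myeloid and dendritic cell markers were below 1 TPM, with a sum of 0.339 to 0.512 TPM and no count of Lyz2, Csf1r or Siglech.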

How the data were processed

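Counts per gene were deposited by the authors as whole numbers. Per the file headers, featureCounts 1.4.6-p4 assigned fragments, both ends mapped and in reverse orientation, to exons of GENCODE M13, and the labels name the assembly mm10. The version of the aligner was not stated in the labels or headers used here. The title of each sample says total RNA-seq, whereas the protocol linked in the labels is one for poly(A) RNA. Symbols and gene types came from GENCODE M21 by Ensembl identifier (99.6% matched). TPM was computed from the counts and the deposited merged exon lengths.

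In R 4.3.3, edgeR 4.0.16 fitted an intercept to the 21764 protein-coding genes, with the log count expected at 1 TPM as offset, and a two-sided quasi-likelihood F test asked whether the level differed from it. Variation between libraries was tested one-sided, from the deviance of a negative binomial fit at the trended dispersion after TMM normalization, in genes averaging 10 counts or more. Both used Benjamini-Hochberg adjustment at 0.05. In counts simulated for 21764 genes the level test called 98% of 100 genes at 2 TPM, 96% of 100 at 0.5 TPM and 4% of 200 at 1 TPM. In counts simulated for 12849 genes the variation test called 74% of 100 genes changed 2-fold in 1 library, 97% of 100 changed 4-fold and 4 of 12649 unchanged. These genes were drawn at the trended dispersion, which the tests assume. Pair differences were tested by exact sign-flip permutation over libraries. Alternatives used DESeq2 1.42.0, limma 3.58.1, other lengths, denominators, size factors, dispersions, pseudocounts and filters, and left out each replicate.

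The members, lists and tests were chosen with earlier results of these data known. The rule names all 10 receptor genes, the 3 highest and the lowest gene of each pathway list, the nearest protein-coding gene on each side of each receptor gene, and the gene most alike in level. Of the 50-base words of each receptor gene's M21 transcripts, at most 4.37% (Tigit) occur in another gene's transcripts. Counts of the 6 pairs of libraries differed beyond sampling noise (chi-square per degree of freedom 4.52 to 12.5), so none repeats the counts of another. Whether any of them came from the same RNA or animal cannot be told from this. Read pairs without molecular identifiers are not independent molecules, so intervals and limits cover counting error only.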

Additional observations from a re-analysis of the deposited data

Results flagged for a closer look

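In 5 of the 47 sets of 4 library values examined, 1 library stood apart by Dixon's criterion, the gap to its nearest neighbour divided by the range, and chance gives about 1 in 20. For the difference Tigit minus Cd226 the gap was 0.860 of the range and for Tigit minus Cd96 it was 0.890, in both because of replicate 4 (0.43 and 2.12 against at least 0.98 and 2.50 on the log2(TPM + 1) scale in the other libraries). Without replicate 4 the mean differences were 1.02 and 2.53. Replicate 2 stood apart as the highest library for Csk (gap 0.838, 325 TPM) and Zc3h12d (gap 0.834, 238 TPM), and replicate 1 as the lowest for Tnfrsf18 (gap 0.858, 172 TPM).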

How the results depend on the processing

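In every alternative run, 9 receptor genes stayed above 1 TPM, and Havcr2 stayed below it in each except the filter on a mean of at least 10 counts, which removes the gene and leaves 0 below. Over all protein-coding genes 11211 lay below 1 TPM with edgeR, against 3363 with DESeq2's Wald test, which tests only genes with a count, and 766 under that filter. The 8 pair differences kept their sign in all alternatives. The summed level of the 10 genes was 2493 TPM over nuclear protein-coding genes alone and 2028 TPM with the longest transcript as length. For Cd226 that length exceeds the exons over which reads were counted. The genes called variable among all genes numbered 47, against 356 with a common dispersion and 24 to 39 when each replicate was left out, the 24 without replicate 4, and 0 receptor genes were called in any of these. The transcription factors below 1 TPM were 1 instead of 2 with DESeq2's Wald test and 1 to 2 when each replicate was left out (1 without replicate 3 and without replicate 4), in each case because Prdm1 lost its call. Smaller moves, within 1.5 times, were 34 variable genes without the count filter, and 5 ligand and 5 co-receptor genes below 1 TPM with DESeq2's Wald test against 6 and 7, which gives no value for Fgl1, Klrg1 and Timd4, the genes without a count. In all, 148 values of the main comparisons and 399 of single genes stayed on their side of the threshold or, for counts, within 1.5 times. The 148 include the pair differences, whose sign could turn only with the length. No paired analysis was possible because there is 1 group. A gene-level count does not resolve isoforms, so membrane-bound and soluble forms of the receptors cannot be told apart.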
